A study of Mus musculus with 12 samples.

Results

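The lungs of mice that had lost Nfat5 in endothelial cells were compared with control lungs after 21 days of hypoxia, using 3 arrays against 3 of the 12 arrays in the series. The members were chosen by their titles alone, as the hypoxic knockout and the hypoxic control arrays. Both groups were adult male and female mice aged 10 to 12 weeks that carried floxed Nfat5 alleles. Knockout mice, labelled Nfat5(EC)-/-, received 1 mg of tamoxifen a day into the peritoneum on 5 consecutive days. Control mice, labelled Nfat5fl/fl, received only the solvent miglyol. Drug and deletion therefore cannot be told apart. Recovery lasted 2 to 3 weeks before the experiment. The other 6 arrays hold the same genotypes in normoxia, 3 each, and serve for comparison. The driver of the Cre recombinase is not given in the labels. Lungs were rinsed of blood through the vessels before RNA was taken from whole tissue.

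NFAT5 is a transcription factor of the Rel family that binds DNA as a dimer and, unlike its NFAT relatives, does not depend on calcineurin. It is best known for switching on transporters and chaperones that protect cells in hypertonic surroundings, and it also responds to mechanical stretch in vessel walls. Chronic hypoxia in mice is a standard way to bring about muscularisation of small lung arteries, in which endothelial signals such as endothelin 1 and PDGF-B act on smooth muscle cells and pericytes. The comparison asks how the hypoxic lung differs when endothelial cells lack this factor.

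Groups of 4 mice were planned, per the series' design text, which adds that the authors left out preparations holding other tissue, such as thymus, or responding poorly to hypoxia. The animals were thus selected in part on an outcome measured here. Replicates 2, 3 and 4 of the knockout and 1, 2 and 4 of the control are present, taken as separate mice, and 3 arrays a group limit the precision. Values were log2 RMA expression values of 24704 named genes, with a median standard error of 0.12 for the difference between groups. The arrays had the same distribution, and pairs of arrays correlated with r of 0.989 to 0.993 within groups and 0.987 to 0.994 between the hypoxic groups. The lung label was borne out by its defining markers: Sftpc, the surfactant protein of type 2 cells, read 13.4 in each of the 6 arrays, and Cdh5, the endothelial cadherin, lay between 11.9 and 12.3. Dntt, a marker of developing thymocytes, lay between 2.90 and 3.11, near the bottom of the scale.

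Several arrays stood apart in markers of brown fat and of heart muscle. Ucp1, the uncoupling protein of brown fat, read 7.66 in control replicate 1, 4.28 in control replicate 2 and 3.55 in control replicate 4. In knockout replicates 2, 3 and 4 it read 3.34, 3.42 and 3.53, so only control replicate 1 was high. Myh6, the heavy chain of heart muscle myosin, read 5.57, 7.25 and 6.90 in the knockouts and 7.84, 7.47 and 7.25 in the controls, with knockout replicate 2 lowest. Xist, which is transcribed in female cells, was low in 1 array of each group, knockout replicate 2 at 3.25 and control replicate 4 at 3.35. The clock genes overlapped between the hypoxic groups. Dbp minus Arntl ran from 5.96 to 6.21 in the knockouts and from 5.64 to 6.21 in the controls. In normoxia the same difference was lower, at -0.10, 1.01 and 1.81 in the knockouts and 0.42, 3.72 and 3.42 in the controls. The oxygen states thus differed in these genes as well. The median genotype difference of 17 clock genes was 0.06 in hypoxia and -0.37 in normoxia. Neat1 is a nuclear noncoding RNA that varies with RNA handling. It read 8.59, 9.51 and 9.34 in the hypoxic knockouts and 8.95, 8.57 and 8.87 in the hypoxic controls, with overlap. In normoxia, knockout replicate 2 had the highest Ucp1 of the series, at 9.31, together with Nppa, the atrial natriuretic peptide, at 11.9.

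**Figure D1:**
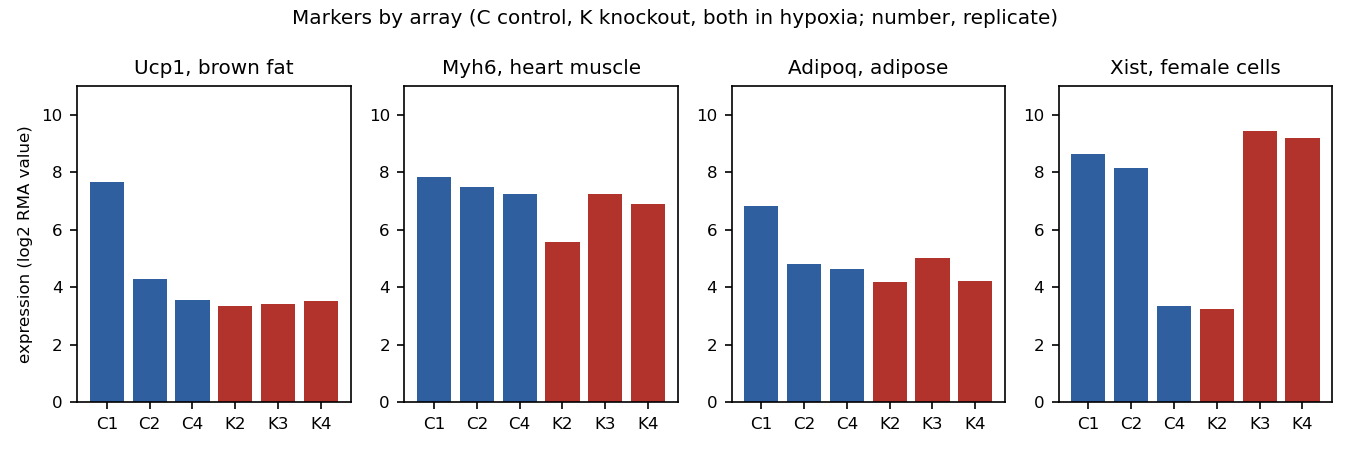
Log2 expression of a marker of brown fat, of heart muscle, of adipose tissue and of female cells in each of the 6 hypoxic arrays, as bars from 0, with controls (C) in blue and knockouts (K) in red. Ucp1 and Adipoq stand out in control replicate 1, Myh6 is lowest in knockout replicate 2, and Xist is low in 1 array of each group.

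Nfat5 itself overlapped between the groups in hypoxic whole lung. It read 8.17, 8.46 and 8.40 in the knockouts and 8.61, 8.16 and 8.51 in the controls, with a control as the lowest array. The difference was -0.08 ± 0.15 (limma's SE, 3 against 3), with a 95% interval from -0.40 to 0.24 and an exact two-sided permutation p of 0.6, where 0.1 is the smallest that 3 against 3 allows. In normoxia Nfat5 was 8.59, 8.80 and 8.62 against 9.01, 9.39 and 8.92, a difference of -0.44 without overlap (exact permutation p of 0.1). Whole lung holds many cells outside the endothelium that keep the gene, and the position of the probes relative to the deleted exons is not given, so this reading does not check the labels. Fewer cells of a type and less RNA per cell cannot be told apart in such tissue, here and in each result that follows.

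At an adjusted p under 0.05 (limma, Benjamini-Hochberg over 24704 genes), 0 genes (0%) differed between knockout and control in hypoxia. A fit of the 6 hypoxic arrays alone called 1, described with the immunoglobulins. The smallest adjusted p was 0.378. At an unadjusted p under 0.05 there were 561 genes higher in the knockout (2.27%) and 698 lower (2.83%). The arrays of the groups did not overlap for 1124 genes higher (4.55%) and 1283 lower (5.19%). These shares are the background for every count that follows, and a gene is called separated below where its 3 knockout arrays lay all above or all below its 3 control arrays. The median difference over all genes was -0.0013 and 12233 genes lay above 0. In normoxia 1 gene was called (0.00405%), while 1350 genes were separated higher (5.46%) and 1536 lower (6.22%).

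The smallest p belonged to Unc5a, a netrin receptor, and Gdap10, a noncoding transcript (Unc5a was picked out after its values were seen). Unc5a read 4.98, 4.88 and 4.87 in the knockouts and 3.74, 3.52 and 4.07 in the controls. The difference was 1.13 ± 0.17 (limma adjusted p = 0.378), with 0.37 in normoxia. Gdap10 read 4.72, 5.04 and 5.09 against 4.21, 3.93 and 3.92, a difference of 0.93 ± 0.14 (limma adjusted p = 0.378). Every knockout array lay above every control array in both genes. For Gdap10 the order was turned in normoxia, at -0.53, also without overlap.

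Of genes outside the immunoglobulins, the leading genes higher in the knockout were Krt79, Yae1d1, Nfyc, Zfp764, P2ry13 and Zdhhc21, besides Gdap10. Krt79, a keratin that alveolar macrophages also express, read 7.54, 7.42 and 7.38 against 6.23, 6.92 and 6.80, a difference of 0.79 ± 0.18. Yae1d1 read 6.58, 6.88 and 6.47 against 5.91, 5.35 and 5.91 (0.92 ± 0.21). Nfyc, a subunit of the CCAAT-binding factor NF-Y, stood at 0.56 ± 0.14. Zfp764, a zinc finger protein, P2ry13, an ADP receptor of myeloid cells, and Zdhhc21, an acyltransferase that palmitoylates proteins, differed by 0.53, 0.49 and 0.42. All of these had a limma adjusted p of 0.947, and in normoxia they lay between -0.13 and 0.20, none of them separated.

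Among the leading genes lower in the knockout, Cxcl14, a chemokine, had the largest difference. It read 9.61, 9.62 and 9.68 in the knockouts and 10.7, 10.6 and 10.2 in the controls, -0.86 ± 0.20, and -0.14 in normoxia. The knockout arrays were close together and all of them lay below the lowest control. Maoa, the amine oxidase that breaks down serotonin and noradrenaline, read 7.82, 7.74 and 7.83 against 8.10, 8.13 and 8.15 (-0.33 ± 0.08). It was separated the other way in normoxia, at 0.14. Mmp3, stromelysin, a protease of the extracellular matrix, read 5.42, 5.62 and 5.61 against 5.95, 6.02 and 6.16 (-0.49 ± 0.12).

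The other 9 genes lower have varied roles. Sec61g, a subunit of the translocon, stood at -0.61 ± 0.13, Plcd3, a phospholipase C, at -0.57 ± 0.13, Syp, synaptophysin, at -0.53 ± 0.12 and Ttc28 at -0.50 ± 0.10. Fmn1, a formin that nucleates actin, and Gpatch4 stood at -0.47 and -0.44. Vmn1r159 (-0.82), Apol9a (-0.57) and Tpm3-rs7 (-0.39) have near-identical copies and are uncertain. Apol9a was the member of the 12 lower genes that was separated in the same direction in normoxia as well, at -0.34. All 12 had a limma adjusted p of 0.947.

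**Figure D2:**
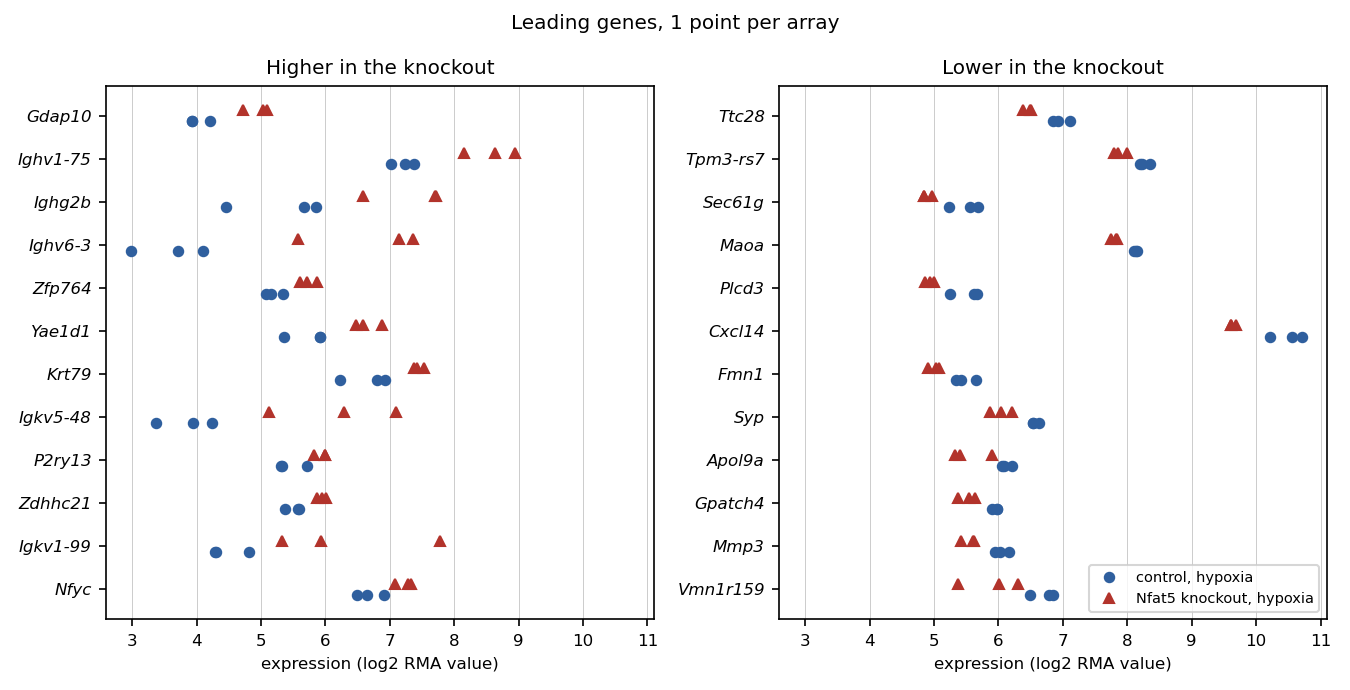
Log2 expression of the 24 leading genes (smallest limma p among separated genes above the array median) in the 3 knockout (red triangles) and 3 control (blue circles) arrays in hypoxia, 1 point per array. The groups do not overlap in any row because the genes were chosen that way; Cxcl14 and Maoa have the tightest knockout arrays, and the immunoglobulin rows the widest spread.

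The promoters of the leading genes were searched for TGGAAA on both strands, the core shared by NFAT sites and the start of the tonicity element that NFAT5 binds. The window was the 250 bases before the start site in RefSeq (GRCm38.p6). Of the 24 leading genes, 17 had a window and 7 of these held the letters (41.2%), against 20.9% of the 27025 genes with a window. Among the lower genes it was 5 of 10 (50%) and among the higher ones 2 of 7 (28.6%). Of the 13 measured genes of an osmotic response list with a window, 2 held the letters (15.4%), Slc6a12 and Sgk1. A match describes letters only, and no binding was measured.

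The windows of the 4 matching genes that are protein-coding and have no near copies are shown 5′ to 3′ on the gene's strand, because they let the letters be read beside the differences given above. Capitals mark TGGAAA or its reverse complement TTTCCA. Maoa lies at chrX:16619448-16619697 on the plus strand, Mmp3 at chr9:7445572-7445821 on the plus strand, Plcd3 at chr11:103101659-103101908 on the minus strand and Zdhhc21 at chr4:82859674-82859923 on the minus strand.
Maoa: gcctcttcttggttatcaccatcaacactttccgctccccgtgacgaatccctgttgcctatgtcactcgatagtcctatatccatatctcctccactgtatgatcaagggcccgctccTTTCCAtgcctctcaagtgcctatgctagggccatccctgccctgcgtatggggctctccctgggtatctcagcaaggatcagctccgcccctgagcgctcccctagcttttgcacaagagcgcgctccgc
Mmp3: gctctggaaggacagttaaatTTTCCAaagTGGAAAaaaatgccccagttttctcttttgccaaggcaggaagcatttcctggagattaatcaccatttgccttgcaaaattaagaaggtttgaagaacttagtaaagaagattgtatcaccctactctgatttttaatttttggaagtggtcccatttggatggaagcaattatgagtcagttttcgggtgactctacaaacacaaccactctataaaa
Plcd3: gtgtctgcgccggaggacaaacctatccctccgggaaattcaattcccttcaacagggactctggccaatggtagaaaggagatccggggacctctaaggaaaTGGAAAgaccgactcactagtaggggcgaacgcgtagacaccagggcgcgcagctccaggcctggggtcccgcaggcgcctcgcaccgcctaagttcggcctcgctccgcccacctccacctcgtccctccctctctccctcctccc
Zdhhc21: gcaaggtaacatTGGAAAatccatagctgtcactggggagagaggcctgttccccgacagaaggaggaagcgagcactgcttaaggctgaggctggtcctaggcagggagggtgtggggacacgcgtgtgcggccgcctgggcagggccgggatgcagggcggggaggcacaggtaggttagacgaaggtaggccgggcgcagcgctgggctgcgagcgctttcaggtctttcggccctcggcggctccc
Maoa, Plcd3 and Zdhhc21 hold 1 match each, whose first base lies 131, 147 and 238 bases before the start. Mmp3 holds 2, on opposite strands, at 220 and 229 bases before it. Maoa, Mmp3 and Plcd3 were lower in the hypoxic knockout and Zdhhc21 was higher.

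Immunoglobulin genes, which are transcribed by B cells and plasma cells, made up most of the large differences (this grouping was made after the values were seen, and the segments share sequence, so single segments are uncertain). Of the 30 genes that were separated by at least 2-fold (0.121%), 24 were higher in the knockout and 21 of those were immunoglobulin genes. Over all 213 immunoglobulin genes measured, 156 lay above 0 with a median difference of 0.31. Of them, 32 were separated higher (15%) and 4 lower (1.88%), beside 4.55% and 5.19% of all genes. At the adjusted threshold 0 of the 213 passed (limma, smallest adjusted p 0.947), and at an unadjusted p under 0.05 there were 40 higher and 4 lower. In the fit of the 6 hypoxic arrays alone 1 gene passed, Igkv4-50, which read 6.24, 6.11 and 6.35 against 4.25, 4.59 and 4.26.

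By class, 18 of 102 kappa chain V genes (17.6%), 9 of 94 heavy chain V genes (9.57%), 3 of 8 constant genes (37.5%), 2 of 6 joining genes (33.3%) and 0 of 3 lambda chain V genes were separated higher. Averaged over the 213 genes, the knockout arrays read 5.86, 4.97 and 5.21 and the controls 4.68, 4.88 and 5.07. Knockout replicate 2 was the highest, and knockout replicate 3 lay below control replicate 4. Without knockout replicate 2 the median difference was 0.08, and without knockout replicate 3 it was 0.56. The constant genes gave class means of 7.63, 7.48 and 7.48 against 7.01, 6.68 and 7.10, without overlap.

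Ighg2b, the constant region of IgG2b, read 7.69, 6.58 and 7.72 in the knockouts and 5.85, 4.46 and 5.67 in the controls, 2.01 ± 0.40. It was separated in normoxia too, at 2.21. Ighv6-3 read 7.13, 7.37 and 5.58 against 2.99, 4.10 and 3.71 (3.10 ± 0.62), and gave 1.04 in normoxia with overlap. Igkv5-48 read 6.29, 5.12 and 7.09 against 3.95, 4.24 and 3.37 (2.32 ± 0.53), and gave -0.05 in normoxia. The control means of Ighv6-3 and Igkv5-48, 3.60 and 3.85, lie below the array median of 4.55 and toward the bottom of the scale. High knockout arrays carried these genes into the leading set, and the size of their differences is uncertain. Over the 213 genes the median in normoxia was 0.22. There 18 were separated higher and 5 lower, beside 5.46% and 6.22% of all genes. Of the 94 heavy chain V genes, 10 were separated higher in normoxia and 9 in hypoxia. In both oxygen states 3 of the 213 were separated higher.

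**Figure D3:**
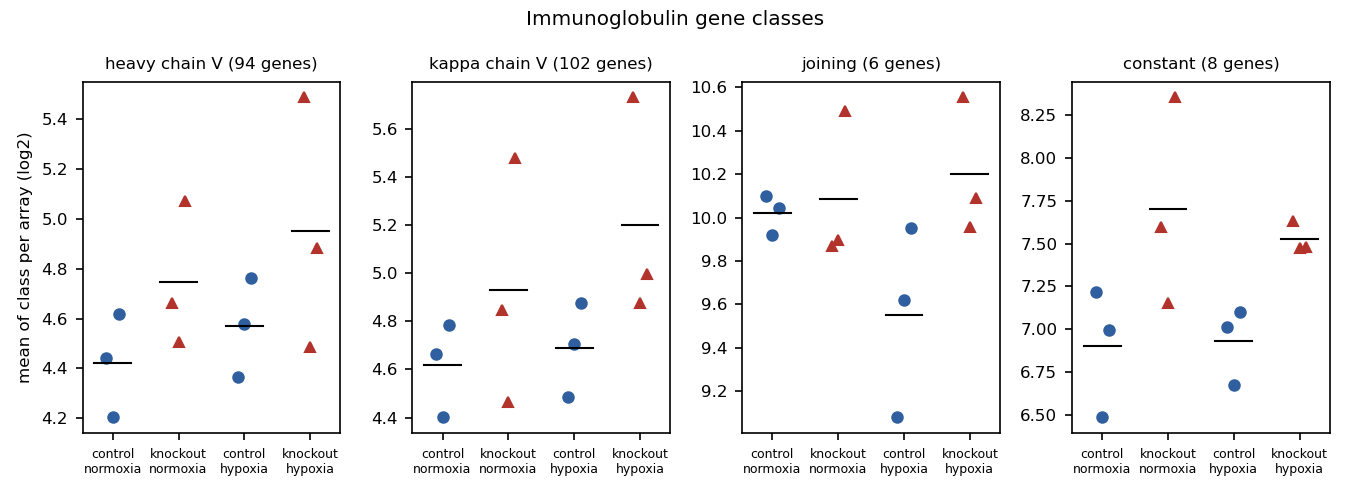
Mean log2 expression per array of 4 classes of immunoglobulin genes in the 4 groups of 3 arrays (points; blue circles control, red triangles knockout), with the group mean as a line; each panel has its own axis. Hypoxic knockout arrays lie above hypoxic controls for constant and joining genes and overlap them for heavy chain V genes, where 1 knockout array is far above the rest.

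The medians of plasma cell genes and of B cell genes had opposite signs. Of 12 measured genes of a plasma cell and immunoglobulin list, 10 lay above 0, 4 were separated higher and the median was 0.58 (0.34 without control replicate 1). Jchain, which joins the subunits of IgM and IgA, read 8.35, 7.96 and 8.14 against 6.61, 6.95 and 7.75, 1.05 ± 0.32. Control replicate 4 was the nearest to the knockouts, and no array overlapped. Igkc, the kappa constant region, was also separated, at 0.55, while Ighm at 0.67 overlapped.

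Of 11 B cell genes 0 lay above 0, 3 were separated lower and the median was -0.34. Pou2af1, a coactivator of octamer factors in B cells, read 4.91, 4.81 and 4.85 against 5.00, 5.31 and 5.37 (-0.37 ± 0.13). Ebf1, an early B cell factor that pericytes express too, read 7.10, 7.18 and 7.12 against 7.52, 7.35 and 7.54 (-0.34). Cd79b, part of the B cell receptor, was lower by value (-0.45) but overlapped. In normoxia the B cell median was -0.03 and the plasma cell median 0.38. Cr2, the complement receptor of mature B cells, was separated at -0.30, from values near the bottom of the scale. None of these genes passed the adjusted threshold.

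Most genes of contractile smooth muscle had slightly lower values in the hypoxic knockout and slightly higher ones in the normoxic knockout than in the controls, though none passed the adjusted threshold. Of 17 genes, 16 lay below 0 in hypoxia, 5 were separated lower and the median was -0.11 (-0.17 without control replicate 1, -0.16 without knockout replicate 4). In normoxia the median was 0.22 and 6 were separated higher. Myh11, the smooth muscle myosin heavy chain, read 8.89, 8.99 and 9.14 against 9.26, 9.21 and 9.35 in hypoxia (-0.26 ± 0.09), with each knockout array under the lowest control. Tagln, transgelin, read 8.20, 8.24 and 8.41 against 8.48, 8.57 and 8.51 (-0.24 ± 0.08). Lmod1, leiomodin of smooth muscle, read 5.84, 5.60 and 5.89 against 6.23, 6.21 and 5.95 (-0.35 ± 0.13). In normoxia all 3 were separated the other way, at 0.14, 0.27 and 0.34. Their interactions, the difference in hypoxia minus that in normoxia, had a limma adjusted p of 0.574 each.

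Extracellular matrix genes gave the same signs, also with 0 called. Of 38 genes, 33 lay below 0 in hypoxia with a median of -0.18, and 3 were separated lower. In normoxia the median was 0.23 and 7 were separated higher. Thbs1, thrombospondin 1, read 8.87, 8.74 and 9.07 in the knockouts and 9.45, 9.27 and 9.32 in the controls, -0.45 ± 0.14. Col18a1, the source of endostatin, stood at -0.33 ± 0.10 and Fbln2, fibulin 2, at -0.32 ± 0.11, both separated. Col5a1, a fibrillar collagen, stood at -0.41 and overlapped.

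A total of 32 of the 38 matrix genes (84.2%) and 14 of the 17 smooth muscle genes (82.4%) were below 0 in hypoxia and above 0 in normoxia, against 27.5% of all genes. Genes of a list share their samples, and this count has no test. Brown fat markers moved with it, as the 2 arrays highest in Ucp1 were a hypoxic control and a normoxic knockout. Without these arrays the matrix and smooth muscle counts were 30 of 38 (78.9%) and 14 of 17 (82.4%), beside 28.7% of all genes. The brown fat list itself still had 8 of 8 genes (100%) with these signs, and the adipose list 14 of 20 (70%). Leaving out the 2 arrays thus did not remove the brown fat pattern. The hypoxic differences of Myh11, Tagln and Lmod1 with the brown fat mean as a covariate were -0.27, -0.23 and -0.39. Those of Thbs1, Fbln2, Col18a1 and Col5a1 were -0.44, -0.24, -0.38 and -0.52. The part of brown fat in the counts was not tested. Nuclear RNAs moved with the signs as well, in mirror image. The median of 12 nuclear noncoding RNAs was 0.18 in hypoxia and -0.26 in normoxia, and that of 29 splicing factor genes 0.09 and -0.26. In normoxia without knockout replicate 2, 0 of the 12 and 0 of the 29 lay above 0. With the nuclear RNA mean as a covariate the hypoxic differences of Myh11, Tagln and Lmod1 were -0.28, -0.26 and -0.24, and those of Thbs1, Fbln2, Col18a1 and Col5a1 were -0.40, -0.34, -0.27 and -0.34. Its part in the normoxic medians and in the turn of sign was not tested. The matrix median in hypoxia ran from -0.30 without knockout replicate 4 to -0.10 without knockout replicate 2.

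**Figure D4:**
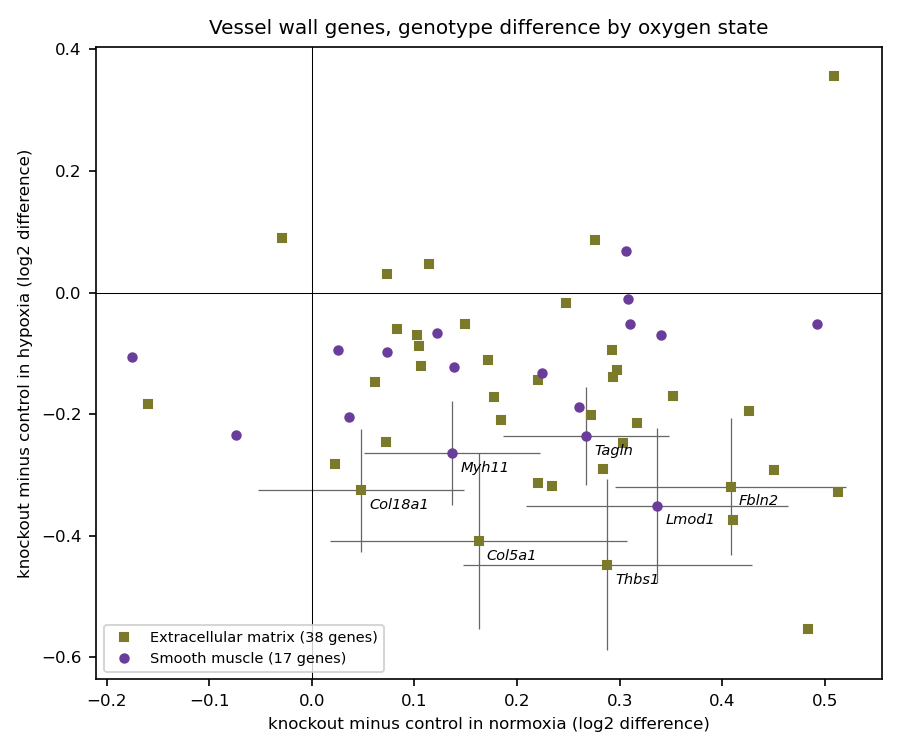
Difference between knockout and control in normoxia (x axis) against that in hypoxia (y axis), both in log2 units, for each of 38 extracellular matrix and 17 smooth muscle genes; 7 genes carry their names and limma standard errors as bars. Most points lie in the lower right part, 32 of 38 and 14 of 17, and of the named genes the bar of Col18a1 reaches across 0 in normoxia.

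Pericyte and endothelial markers had medians below 0 too. Of 13 pericyte genes 0 lay above 0, 0 were separated and the median was -0.15 (-0.24 without knockout replicate 4). Of 20 genes shared by all endothelial cells, 18 lay below 0, 4 were separated lower and the median was -0.11 (-0.04 without control replicate 2). Erg, a transcription factor that maintains endothelial identity, read 8.76, 8.67 and 8.50 against 8.93, 8.83 and 8.97 (-0.27 ± 0.10). Tek, the angiopoietin receptor, Cdh5 and Pecam1 were separated at -0.16, -0.18 and -0.12. Of 12 genes of general capillary cells 0 were separated and the median was -0.10 (-0.17 without knockout replicate 4), with Aplnr, the apelin receptor, at -0.52 ± 0.18. In normoxia the endothelial median was -0.02.

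Among signals from endothelium to the vessel wall, Pdgfb was separated lower and Edn1 overlapped. Pdgfb, which recruits pericytes and smooth muscle cells, read 8.96, 8.75 and 8.94 against 9.06, 9.36 and 9.15, -0.31 ± 0.15 with a 95% interval from -0.64 to 0.02. The groups did not overlap, and in normoxia the difference was 0.22. Edn1, endothelin 1, a vasoconstrictor, read 8.04, 8.24 and 8.02 against 8.02, 8.58 and 8.11. Its difference of -0.13 ± 0.15 has an interval from -0.46 to 0.19, with overlap. In normoxia Edn1 was separated higher, at 0.56. Over 6 PDGF genes and 6 endothelin genes the medians were -0.04 and -0.08.

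In the BMP and TGF-beta list of 27 genes the median was -0.04, with 3 separated lower and 1 higher. Tgfbi, a matrix protein induced by TGF-beta, read 9.42, 9.37 and 9.41 against 9.96, 9.88 and 9.80 (-0.48 ± 0.15), with all knockouts well under the controls. Bmp2, a ligand, stood at -0.40 and Tgfbr1, a receptor, at 0.22, both separated. Bmpr2, the receptor mutated in heritable pulmonary arterial hypertension, stood at 0.08 with an interval from -0.37 to 0.54.

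Among 19 VEGF and angiopoietin genes 3 were separated lower, Vegfb (-0.18) and Tek included, and the median was -0.10 (-0.16 without knockout replicate 4). Among 12 genes of the IGF system 2 were separated lower, both binding proteins. Igfbp3 read 7.10, 7.23 and 7.39 against 7.52, 7.89 and 7.86 (-0.52 ± 0.17), and Igfbp2 stood at -0.23 ± 0.11. Among 15 genes of prostanoid and serotonin signalling Maoa was the 1 that was separated.

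The 21 targets of hypoxia-inducible factors had a median difference of -0.03, 0 separated higher and 1 lower. Vegfa, the angiogenic growth factor, stood at -0.06 with an interval from -0.26 to 0.14. Slc2a1, the glucose transporter, stood at 0.10 with an interval from -0.14 to 0.35. Ankrd37 had the widest spread, at 6.62, 5.18 and 5.32 against 5.47, 7.41 and 6.32, so that its -0.69 lay within overlapping groups.

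The osmotic response genes, the known targets of NFAT5, lay mostly slightly above 0 in the hypoxic knockout lungs. In normoxia their median was -0.05, with 0 separated higher and 2 lower. The values that follow are from hypoxia. Of 15 genes, 11 lay above 0, 0 were separated higher and 1 lower, with a median of 0.06 (0.03 to 0.13 over the arrays left out in turn, highest without knockout replicate 3). Slc5a3, the myo-inositol transporter, read 5.35, 5.90 and 5.44 against 5.29, 4.83 and 5.50 (0.36 ± 0.25). Hspa4l, the osmotic stress chaperone, read 7.77, 8.36 and 7.84 against 7.82, 7.48 and 7.58 (0.36 ± 0.17). Both overlapped between groups, and in each gene knockout replicate 3 was the highest array. Without knockout replicate 3 the differences of Slc5a3 and Hspa4l were 0.19 and 0.17. Sgk1, a salt-responsive kinase, stood at 0.15, and at 0.02 without knockout replicate 4. Of 11 genes of calcineurin and the other NFAT factors, Nfatc3 was separated higher (0.15). The median of 0.05 had no stable sign, as it ran from -0.05 (without control replicate 2) to 0.03 over the arrays left out in turn.

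The genes of the respiratory chain had medians near 0. The median was 0.04 over 33 subunits of complex I and -0.01 over 32 subunits of complexes II to V, with 2 separated higher in each, and 0 and 3 lower. Atp5j, a subunit of ATP synthase, stood at 0.30, separated. Of 27 genes of fatty acid oxidation and the citric acid cycle, 22 lay below 0, 7 were separated lower and 1 higher, with a median of -0.08. The median ran from -0.12 to -0.05 over the arrays left out in turn, nearest 0 without knockout replicate 4. Without control replicate 1, 16 of the 27 lay below 0. At an unadjusted p under 0.05 there were 0 of the 27 (limma). Cpt1a, which brings fatty acids into mitochondria, read 9.12, 9.10 and 9.16 against 9.36, 9.42 and 9.34 (-0.24 ± 0.12). Acadl and Suclg1 stood at -0.24 and -0.13, separated as well. In normoxia the median of this list was 0.25 (0.12 without knockout replicate 2 of normoxia).

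Markers of fat and heart moved in the same direction as those genes. Of 20 adipose genes 19 lay below 0 with a median of -0.23 (-0.13 without control replicate 1), and the normoxic median was 0.53. In hypoxia the array means of that list ran from 7.45 to 7.79 in the knockouts and from 7.57 to 8.50 in the controls. Plin4, a lipid droplet protein, stood at -0.78 and was separated, and Adipoq, adiponectin, at -0.94 overlapped. For 8 brown fat genes the median was -0.36 (-0.20 without control replicate 1), with array means of 3.99 to 4.16 against 4.23 to 5.45. For 13 heart muscle genes the median was -0.36, with array means of 5.90 to 6.48 against 6.51 to 6.61. Apart from the fits with the brown fat covariate, the part of these tissues in the other differences was not tested.

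Myeloid and inflammatory lists held some separated genes, and the medians of the cytokine, chemokine and alveolar macrophage lists lay near 0. Il1b, the cytokine interleukin 1 beta, read 5.46, 4.63 and 4.85 against 5.47, 5.93 and 5.95 (-0.80 ± 0.20). The groups were separated, though knockout replicate 2 lay just under control replicate 1. Over 19 inflammatory cytokine genes the median was -0.0018, and over 36 chemokine genes and receptors it was -0.0019, with Ccl8 separated higher (0.32) besides Cxcl14. Of 14 neutrophil genes 3 were separated lower, Retnlg at -0.46 and Ngp at -0.24 among them, and the median was -0.16. Of 12 alveolar macrophage genes, Krt79 and Chil3, a chitinase-like protein (0.41), were separated higher while the median was 0.0023. Of 10 dendritic cell genes 9 lay above 0 with a median of 0.17, but without control replicate 1 there were 4 below 0 and the median was 0.06. Xcr1, a receptor of cross-presenting cells, was separated at 0.30, while Ccr7, which guides mature cells to lymph nodes, stood at -0.42 with overlap.

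The Ifi200 family, which holds sensors of DNA, had a median above 0 in hypoxia. Of 11 genes 8 lay above 0, 3 were separated higher and the median was 0.20. Ifi205 read 6.06, 6.42 and 6.005 against 5.15, 4.58 and 5.65 (1.04 ± 0.29), and control replicate 2 was the lowest array. Aim2, which starts an inflammasome, stood at 0.36. These genes lie in a cluster of close copies and are uncertain one by one. In normoxia the median was -0.14 and 0 were separated higher. Among 24 interferon-stimulated genes 3 were separated higher, such as Isg15 (0.25), and 2 lower, Oasl1 (-0.35) and Ifit3 (-0.39), with a median of 0.10 (0.05 without control replicate 4).

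Of 19 genes of ciliated cells 14 lay above 0 and the median was 0.16 (0.10 without control replicate 2 or knockout replicate 3, 0.24 without knockout replicate 4). Dnah11, a dynein of motile cilia, read 6.55, 6.64 and 6.46 against 6.28, 5.995 and 6.45 (0.31 ± 0.11), and knockout replicate 4 lay just over control replicate 4. Cfap47, a protein of the ciliary axoneme, stood at 0.77, separated too. The normoxic median of this list was -0.07.

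**Figure D5:**
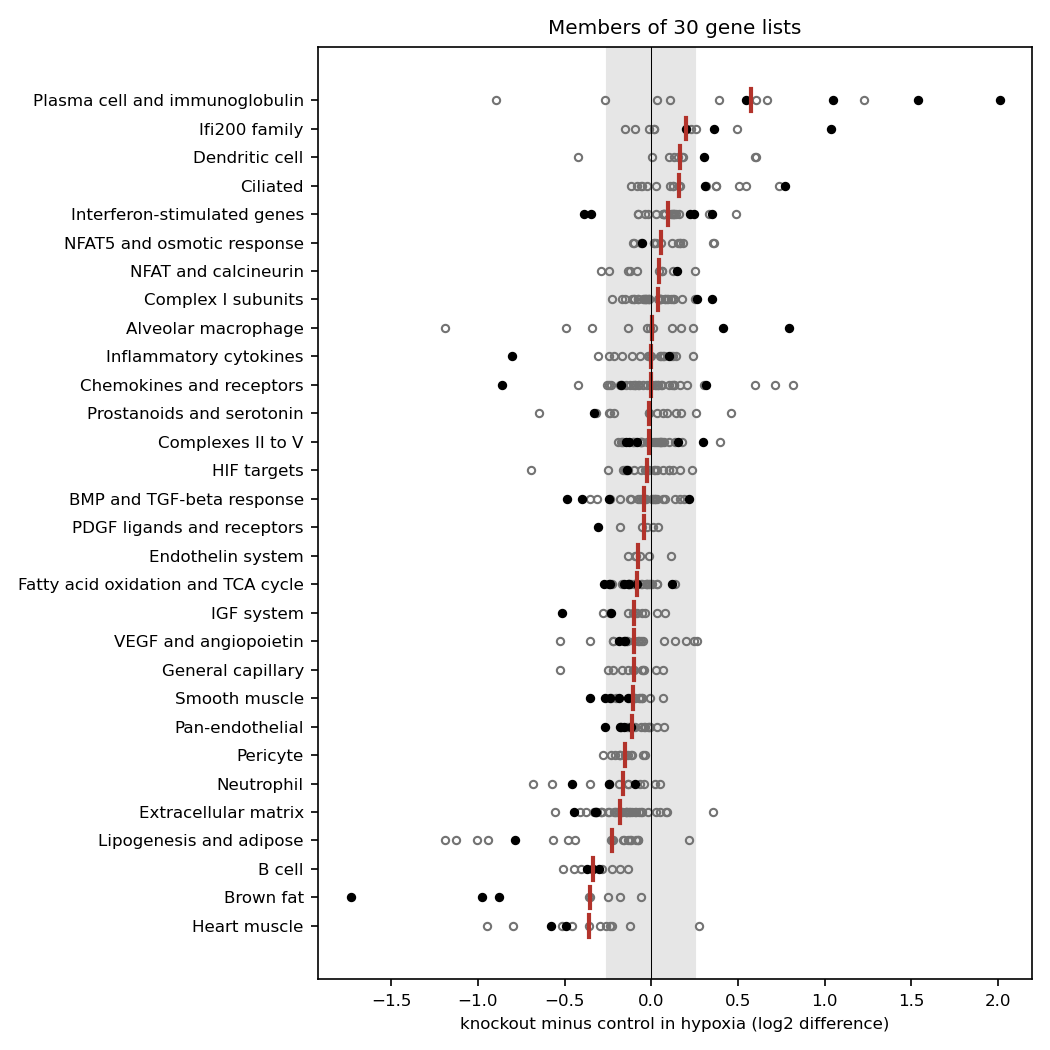
Difference between knockout and control in hypoxia (log2) for each measured member of 30 gene lists, with separated genes filled, other genes open and the list median as a red bar; the grey band spans the 5th to the 95th percentile of all genes. Medians run from -0.36 (heart muscle) to 0.58 (plasma cell and immunoglobulin). The band is drawn from single genes, which spread more than medians, so it is no yardstick for the red bars.

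The 70 lists together held 1046 measured genes, of which 35 were separated higher (3.35%) and 71 lower (6.79%), beside 4.55% and 5.19% of all genes. Over the arrays left out in turn, 9 of the 30 described medians took both signs, within -0.08 to 0.08. They were those of calcineurin and NFAT, BMP and TGF-beta, prostanoids and serotonin, hypoxia-inducible factor targets, complex I, complexes II to V, alveolar macrophages, chemokines and inflammatory cytokines. A median beyond 0.2 in size was found for 6 lists, and 47 of the 70 medians lay below 0. The 40 lists not described above had medians from -0.30 to 0.18, with at most 2 genes separated higher and 3 lower in each. Platelet genes gave the lowest of these (8 genes, 0 separated).

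The separated genes of hypoxia were set beside those of normoxia. Of the 1124 genes separated higher in hypoxia, 39 were so in normoxia (3.47% of these and 2.89% of the 1350 in normoxia), while 88 (7.83%) were separated lower there. Of the 1283 genes separated lower in hypoxia, 53 were so in normoxia (4.13% of these and 3.45% of the 1536 in normoxia), while 97 (7.56%) were separated higher. Of all genes, 5.46% were separated higher in normoxia and 6.22% lower. Whether the shared counts differ from these shares was not tested. No array is in both comparisons. The test of the interaction called 1 gene (0.00405%), Gm10566, a predicted gene named here because it was the single call. It read 8.74, 8.53 and 8.84 in hypoxic knockouts and 8.98, 9.04 and 9.09 in hypoxic controls. In normoxia it read 8.58, 8.68 and 8.58 against 7.74, 7.63 and 7.76. The difference was -0.33 in hypoxia and 0.90 in normoxia, an interaction of -1.24 (limma adjusted p = 0.0169). The call was lost with the replicate block, with the nuclear RNA, Y-linked, clock and brown fat covariates, and in 9 of the 12 fits that left out 1 array.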

How the data were processed

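RNA of whole mouse lung was measured on Affymetrix arrays, 3 per group. The authors deposited log2 expression values, made with RMA per the submitters' processing notes. RMA corrects background, brings arrays to a common distribution and summarises probes. It therefore hides shifts that all genes share. The RMA version, the probe annotation, any filter and the build were not given in the sources used here. Platform annotation gave 24705 of 25428 probe sets 1 symbol and 723 none, and the probe set with the highest mean was kept per gene.

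All 12 arrays were fitted as 4 group means with limma 3.58.1 in R 4.3.3 (empirical Bayes, no trend, 8 residual degrees of freedom, prior 3.61), tested two-sided and adjusted by Benjamini-Hochberg over 24704 genes, with no filter on low values. Errors are limma's standard errors. P-values measure the spread between the deposited samples. The fit was tested on simulated data.

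The comparison and the gene lists were chosen with earlier results of these data known. Named genes were, per direction, the 12 smallest p among separated genes above the array median (4.55) with no placeholder symbol, up to 4 members per described list by p, and a few vascular and tissue marker genes. Alternatives were other fits, covariates and normalization, a filter, a replicate block and leaving out each array. Promoter windows are from RefSeq (GRCm38.p6).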

Additional observations from a re-analysis of the deposited data

Results flagged for a closer look

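The genotype difference of 11 named genes had opposite signs in hypoxia and normoxia, with no overlap of arrays in either state. Among all 24704 genes, 88 were separated higher in hypoxia and lower in normoxia, and 97 the reverse. Most named genes were picked by small p in hypoxia and Gm10566 by its call, so the 11 are not a measure of how common such genes are. The interaction, the difference in hypoxia minus that in normoxia, passed the test for Gm10566 only, at -1.24 (limma adjusted p = 0.0169), a call lost with the replicate block, 4 covariates and 9 of 12 left-out arrays. Gdap10, a noncoding transcript, had an interaction of 1.45 (limma adjusted p = 0.142). The other 9 had a limma adjusted p of 0.574, so their difference was not shown. Among them, the smooth muscle genes Lmod1, Tagln and Myh11 had interactions of -0.69, -0.50 and -0.40. Fbln2, a matrix gene, stood at -0.73, Igfbp2, a binding protein for insulin-like growth factors, at -0.57 and Maoa, the amine oxidase, at -0.47. Suclg1, an enzyme of the citric acid cycle, stood at -0.41 and Dnah11, a ciliary dynein, at 0.60. Cox8b, a subunit found in brown fat and heart, stood at -2.60. Its highest values were 8.25 in knockout replicate 2 of normoxia and 6.80 in control replicate 1 of hypoxia, the arrays highest in Ucp1.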

How the results depend on the processing

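The hypoxia count stayed at 0 in the alternatives run except the fit of the 6 hypoxic arrays alone, which called 1. Leaving out each array gave 0 throughout, and unadjusted counts from 776 to 1977. The call in normoxia went from 1 to 0 with the replicate block, the clock covariate and the brown fat covariate, and to 0 without any single normoxic array. With the nuclear RNA covariate it was another gene. The interaction count went from 1 to 0 with the replicate block and the nuclear RNA, Y-linked, clock and brown fat covariates, to 2 with array weights, and from 0 to 3 over the arrays left out in turn (3 without control normoxia replicate 4). The cause was not tested. Same-numbered deviations correlated at 0.01 and 0.08 in hypoxia and at 0.09, 0.28 and 0.18 in normoxia, not over 0.1 for every pair, so the numbers were not taken as pairs. With the replicate block Bmpr2 stood at -0.0745 and Ece2 at 0.016.

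Of 2479 values for 139 named genes under 18 alternatives, 15 had the other sign, in 7 genes, and 0 leading genes turned. The leading genes were chosen as separated, so leaving out a single array could not turn their sign. Several other fits and the filter leave a difference unchanged by design. The 0 is therefore no measure of how stable the leading genes are. Bmpr2 was -0.16 with the nuclear RNA covariate. Pdgfd was 0.0251 with array weights and 0.0502 with the brown fat covariate. With each hypoxic array left out in turn, differences ran from -0.2161 to 0.0085 for Nfat5, from -0.2425 to 0.0397 for Edn1, from -0.0632 to 0.3099 for Bmpr2, from -0.0059 to 0.2148 for Slc2a1, from -0.0482 to 0.1423 for Pdgfc, from -0.1702 to 0.0934 for Pdgfd and from -0.4235 to 0.0326 for Lpl. The sign turned without control replicate 1 for Nfat5, Slc2a1, Pdgfc, Pdgfd and Lpl, among other arrays. With 3 arrays a group, a median standard error of 0.12 limits the differences that could pass.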
